A study of Homo sapiens with 3 samples.

Results

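ATF4, DDIT3, TRIB3 and ATF3 form the transcriptional core of the integrated stress response, the programme by which cells cut general protein synthesis and induce genes for amino acid supply, redox balance and, under prolonged stress, cell death. They were chosen by name as this core, with their values on these arrays already known. The gene lists set beside them were also chosen with earlier results of these data known. Everything below about the 4 genes and the lists is therefore a description. Each gene had 1 probe set that carried its symbol alone. So 4 of the 16098 probe sets with 1 symbol, and 4 of the 8868 protein-coding genes that passed a floor on low values, are described here. Expression had been measured on Affymetrix arrays in MDA-MB-231, an established human breast cancer line that lacks the oestrogen and progesterone receptors and HER2 amplification. One culture was kept with 1% DMSO as the vehicle control, another with 10 µM CFX and another with 10 µM Mt-CFX, each for 72 h. CFX is taken to be the ciprofloxacin of the series title, a fluoroquinolone antibiotic, while for Mt-CFX the labels give nothing beyond this code name. A DMSO content is given for the control alone, so DMSO and compound cannot be told apart in a comparison with the control.

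Each of the 3 groups was 1 array. There is therefore no replicate error, no test was made, no p-value is given, and no difference was compared with a spread between cultures. Values are log2 expression values from the RMA method, in which 1 unit is a 2-fold difference. The floor was the median of all probe sets, 3.89 log2, and a gene was kept when its highest array reached it. The values have many ties. Of the 8868 genes, 45.3% had exactly the same value on the 3 arrays, and a further 13.8% had the same value on the control and CFX arrays and another on the Mt-CFX array. As background, the median polish with which RMA summarises the probes of a probe set can return equal values when few arrays are run together, so an exact tie is not a measurement of equal RNA. The line's mesenchymal markers AXL at 10.97, MSN at 10.75 and VIM at 9.17 log2 in the control were well above the floor, whereas PGR at 2.39, KRT5 at 2.59 and ESR1 at 3.81 were below it. Of the 10 markers listed for the line, 7 were measured, and all 7 were above the floor. Of the 12 luminal or epithelial markers listed, 10 were measured, and 7 reached the floor on at least 1 array. Among these were the keratin genes KRT19 at 6.12 and KRT8 at 5.83 log2 in the control. ESR1 was also among them, through its CFX value of 3.92 log2 alone.

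As background, stress is sensed by kinases that phosphorylate the initiation factor eIF2: EIF2AK1 (HRI) responds to haem loss and mitochondrial stress, EIF2AK2 (PKR) to double-stranded RNA, EIF2AK3 (PERK) to unfolded protein in the endoplasmic reticulum and EIF2AK4 (GCN2) to uncharged tRNA. Phosphorylated eIF2 inhibits the exchange factor eIF2B, which lowers general translation but favours translation of ATF4, whose messenger RNA carries upstream open reading frames. ATF4 protein then binds C/EBP-ATF composite elements with a bZIP partner and induces, among others, DDIT3, TRIB3 and ATF3. Because much of this control is on translation and protein stability, messenger RNA levels show only part of it.

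With Mt-CFX the 4 genes were higher than in the control without exception, by 1.97 log2 for TRIB3, 1.69 for DDIT3, 0.83 for ATF4 and 0.69 for ATF3. With CFX the differences were 0.24 log2 for ATF4 and 0.10 for TRIB3, and DDIT3 and ATF3 had the control's value exactly. Of the 4 genes, 2 were at least 2-fold higher with Mt-CFX than in the control, where 0.304% of all genes compared were, and 4 were at least 1.5-fold higher, where 1.45% of all genes were. With CFX, 0 of 4 were 2-fold or 1.5-fold higher, beside 0.0226% and 0.0451% of all genes. The 2 genes past 2-fold with Mt-CFX were TRIB3 and DDIT3, and DDIT3 passed the floor through the Mt-CFX array alone. Since the genes were also chosen with these contrasts known, the shares are given as background only.

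**Figure D1:**
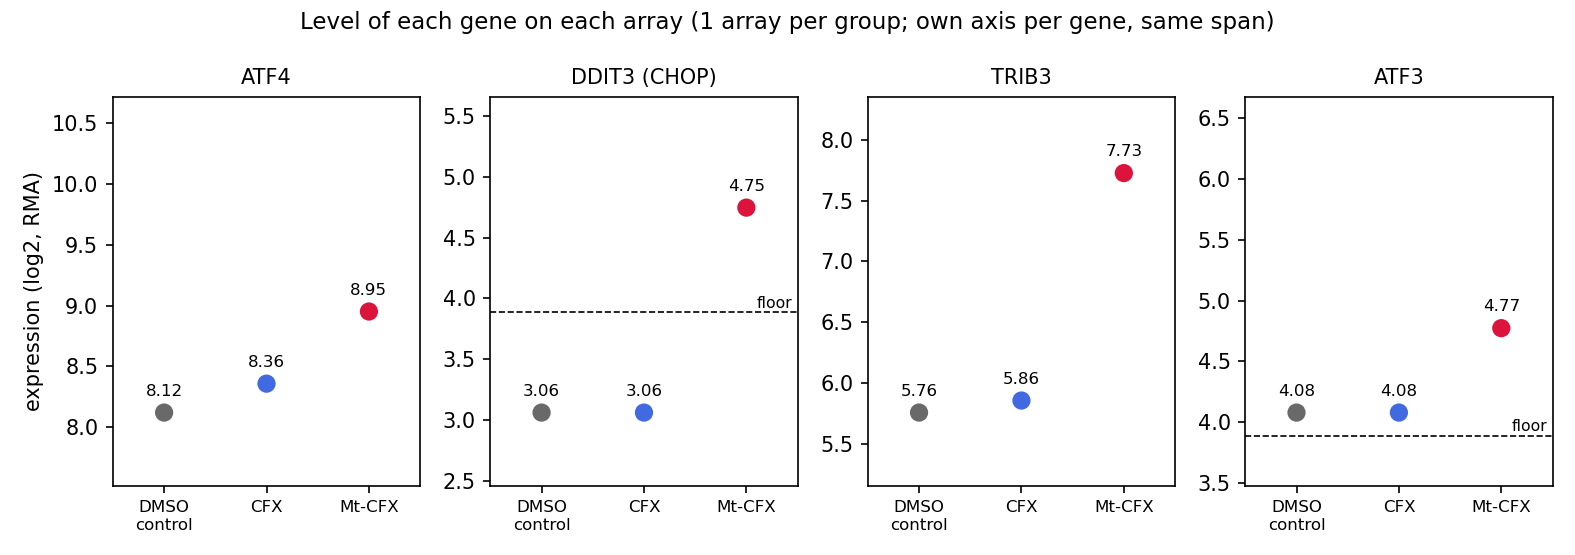
Expression in log2 units on the DMSO control, CFX and Mt-CFX arrays, with 1 point per array, an axis of its own for each gene but the same span, and the floor of 3.89 log2 as a dashed line where it falls within the panel. The Mt-CFX point is the highest in each of the 4 panels, and the control and CFX points of DDIT3 (both 3.06) and ATF3 (both 4.08) coincide.

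ATF4 encodes the bZIP activator at the centre of the response. Its level was 8.12 log2 in the control, 8.36 with CFX and 8.95 with Mt-CFX. All 3 arrays lay far above the floor, with the CFX array between the others. ATF4 was 1.18-fold higher with CFX and 1.78-fold higher with Mt-CFX than in the control. Its CFX difference was 28.6% of its Mt-CFX difference, against 5.03% for TRIB3. The 0% of DDIT3 and ATF3 comes from exact ties, which are not a measurement of equal RNA. Among the 8868 genes the ATF4 difference ranked 199th with CFX and 55th with Mt-CFX. The central 95% of all genes ran from −0.19 to 0.23 log2 with CFX and from −0.44 to 0.47 with Mt-CFX, so ATF4 was just above the upper end of that range with CFX and well above it with Mt-CFX.

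DDIT3 encodes CHOP, a C/EBP-family protein that heterodimerises with other bZIP proteins and promotes cell death when stress persists. Its level was 3.06 log2 in the control, 3.06 with CFX and 4.75 with Mt-CFX. The control and CFX values were identical and 0.83 log2 below the floor, at percentile 32.5 of all probe sets, and only the Mt-CFX value, at percentile 65.4, was above it. The difference of 1.69 log2, or 3.22-fold, therefore starts from a value at which a probe set may report little signal from its gene, and its size is uncertain. DDIT3 ranked 9th among all genes for Mt-CFX over control. It passed the floor through the Mt-CFX array alone.

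TRIB3 encodes a pseudokinase, induced by ATF4 together with CHOP, that binds AKT and ATF4 and dampens the response. Its level was 5.76 log2 in the control, 5.86 with CFX and 7.73 with Mt-CFX. The control and CFX arrays were close together and the Mt-CFX array stood apart, and all 3 were above the floor. TRIB3 was 1.07-fold higher with CFX and 3.92-fold higher with Mt-CFX than in the control. It had the widest Mt-CFX difference of the 4 genes and ranked 4th of all genes, after EGR1, GDF15 and DDIT4, while with CFX it ranked 911th and lay inside the central 95% of genes.

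ATF3 encodes a bZIP factor of the ATF and CREB family that is induced by ATF4 and by other stress pathways and can repress as well as activate genes. Its level was 4.08 log2 in the control, 4.08 with CFX and 4.77 with Mt-CFX. The control and CFX values were identical and only 0.19 log2 above the floor, and the Mt-CFX value was 0.88 log2 above it. The 1.62-fold difference between Mt-CFX and control ranked 85th and was the smallest of the 4. The exact ties of DDIT3 and ATF3 between control and CFX were shared by 59.2% of all genes, most of them equal on the 3 arrays, but by only 11 of the 129 genes (8.53%) that were at least 1.5-fold higher with Mt-CFX than in the control. Such ties do not show that CFX left these genes unaffected.

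When the compounds were compared at their common dose of 10 µM and time of 72 h, each gene was higher with Mt-CFX than with CFX. This is the only pair of compounds in the series, and with 1 array per compound no interval of the difference can be given. TRIB3 was 3.66-fold higher with Mt-CFX than with CFX, a difference of 1.87 log2 that ranked 4th. DDIT3 was higher by 1.69 log2, from the CFX value below the floor that leaves the size of its fold and rank uncertain. ATF3 was 1.62-fold higher, by 0.69 log2, and ranked 68th, and ATF4 was 1.51-fold higher, by 0.59 log2, and ranked 95th. ATF3 thus stood above ATF4 in this comparison and below it against the control, because ATF4 alone of the pair had a higher value with CFX than in the control. Of the 4 genes, 2, TRIB3 and with that limit DDIT3, were at least 2-fold higher with Mt-CFX than with CFX, where 0.259% of all genes were, and 4 at least 1.5-fold higher, where 1.13% were. The comparisons share arrays and are not independent of each other.

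**Figure D2:**
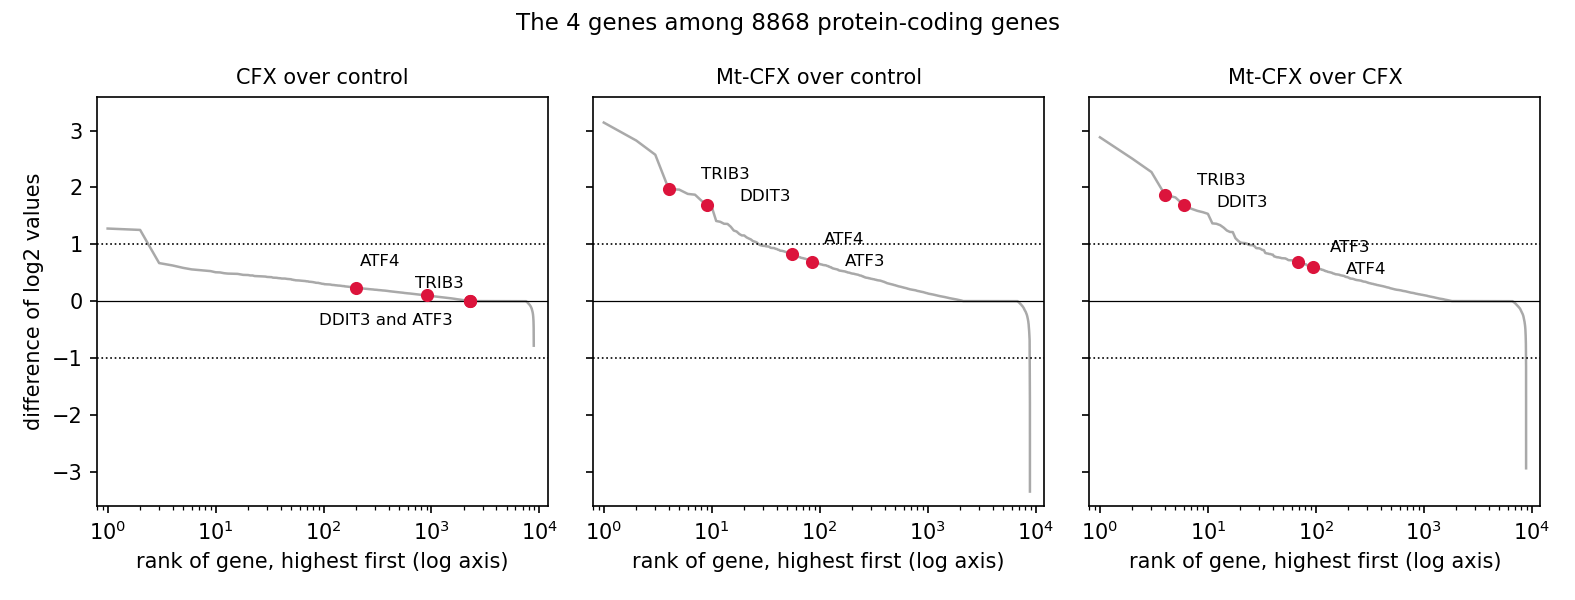
Differences of log2 values for the 8868 protein-coding genes, ordered from highest to lowest (grey line, rank on a log axis), in each comparison, with the 4 genes as red points and 2-fold differences as dotted lines. TRIB3 and DDIT3 lie above the upper dotted line in both Mt-CFX panels, at ranks 4 and 9 over control and 4 and 6 over CFX, and none of the 4 genes lies above it with CFX.

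The upstream sequences of the genes are shown because the genes were higher together with Mt-CFX and are known to answer to shared bZIP factors. They were taken from RefSeq windows on GRCh38.p14, and only the 250 bases before a listed transcript start are printed, 5′ to 3′ on the gene's strand. Capitals mark matches, on either strand, to any of 5 motifs. These were TTGCATCA, the C/EBP-ATF composite element, TTNCATCA, the same with any base in place of its G, TGACGTCA, the cyclic AMP response element, TGANTCA, the AP-1 element, and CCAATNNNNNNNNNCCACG, the ER stress element. The second motif contains the first, and the AP-1 and cyclic AMP elements read the same on both strands in their fixed letters. The ATF4 stretch lies at chr22:39520309-39520558 on the plus strand, that of DDIT3 at chr12:57520518-57520767 on the minus strand and that of ATF3 at chr1:212565157-212565406 on the plus strand.
ATF4: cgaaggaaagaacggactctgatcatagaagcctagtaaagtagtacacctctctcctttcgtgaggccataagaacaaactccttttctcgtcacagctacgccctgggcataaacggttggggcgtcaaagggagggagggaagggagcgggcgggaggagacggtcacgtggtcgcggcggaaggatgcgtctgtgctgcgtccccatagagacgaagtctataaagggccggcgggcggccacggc
DDIT3: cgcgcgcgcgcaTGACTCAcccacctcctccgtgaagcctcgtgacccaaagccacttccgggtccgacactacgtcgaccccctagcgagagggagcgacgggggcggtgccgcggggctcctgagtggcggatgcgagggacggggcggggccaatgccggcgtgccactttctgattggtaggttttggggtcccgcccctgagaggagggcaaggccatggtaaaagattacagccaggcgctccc
ATF3: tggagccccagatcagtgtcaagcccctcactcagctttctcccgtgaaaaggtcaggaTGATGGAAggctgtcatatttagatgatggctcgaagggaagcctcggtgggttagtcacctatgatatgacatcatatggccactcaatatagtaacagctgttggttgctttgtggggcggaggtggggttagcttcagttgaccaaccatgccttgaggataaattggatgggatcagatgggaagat

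The DDIT3 stretch held 1 AP-1 match, which began 238 bases before the start, and the ATF3 stretch held 1 match to the relaxed composite motif, as TGATGGAA read on the plus strand, which began 191 bases before the start. The ATF4 stretch held no match to any of the 5 motifs. Of the 35116 windows in the table, 6.57% held an AP-1 match in these 250 bases, 3.14% a relaxed composite match, 0.772% a strict composite match, 1.65% a cyclic AMP element and 0.0740% an ER stress element. The table had 2 windows each for ATF4, DDIT3 and ATF3 and 3 for TRIB3. The second ATF3 window and the 3 TRIB3 windows, whose 250 bases were 77.6% to 78.8% G or C, held no match. They start inside the annotated gene and are not printed. A match is a description of letters and not a binding site, and stretches outside these windows, where elements may also lie, were not searched. Only matches to every fixed letter of a motif were counted, so a stretch without a match may still hold a variant of it. Which transcript start was in use in these cells is not known from the arrays.

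Other genes were compared with each of the 4 by the pair of differences from the control, CFX and Mt-CFX, and the distance between pairs, over the 3 arrays and 8868 genes. Nearest to ATF4 was PMAIP1, which encodes the BH3-only death protein NOXA, at a distance of 0.0156 log2, with 0.23 log2 for CFX and 0.84 for Mt-CFX. RNF41, a ubiquitin ligase gene, and TSEN15, a subunit of the tRNA splicing endonuclease, followed at 0.0245 and 0.0520. Nearest to ATF3 were IFRD1 at 0.00730, ABHD4 at 0.0150 and CA13 at 0.0266. The IFRD1 pair, 0.00 with CFX and 0.70 with Mt-CFX, had the same tie between control and CFX as ATF3.

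The distances from DDIT3 and TRIB3 to their nearest genes were wider. DDIT3 was nearest to SESN2, whose product restrains mTOR signalling under stress, at 0.169 log2, then to TRIB3 at 0.301 and to the kinase gene STK32A at 0.304. TRIB3 was nearest to ANKFN1 at 0.231, to SLFN5 at 0.236 and to DDIT3 at 0.301. Few genes had differences of this size, so these neighbours were drawn from a small number of genes, and the pair of DDIT3 rests on values below the floor in the control and with CFX. In the order of Mt-CFX over control, TRIB3 at rank 4 lay between DDIT4 at 2.58 and SLFN5 at 1.96 log2, and DDIT3 at rank 9 between KDM7A at 1.77 and SESN2 at 1.66. ATF4 at rank 55 lay between TES and WNK4, both at 0.83, and ATF3 at rank 85 between FBXO48 at 0.70 and ALDH2 at 0.69. WNK4 was below the floor in the control.

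With Mt-CFX, the measured genes that act upstream of ATF4 differed less from the control than the 4 core genes did. In the list of eIF2 kinases and their activators, 7 of 8 genes were measured, and none of the 7 differed 1.5-fold with either compound. With Mt-CFX 1 was higher than in the control, 2 were lower and 4 were equal, with a median of 0.00, where over all genes 23.9% were higher, 23.2% lower and 52.9% equal, also with a median of 0.00. EIF2AK3 (PERK), at 6.31 log2, and EIF2AK4 (GCN2), at 7.09, had the same value on the 3 arrays. DELE1 and OMA1, which relay mitochondrial stress to EIF2AK1 (HRI), were likewise at a single value, 6.25 and 6.52 log2. EIF2AK1 was at 7.68 in the control, 7.69 with CFX and 7.67 with Mt-CFX, and EIF2AK2 (PKR) at 8.32, 8.40 and 8.40. GCN1, which helps to activate GCN2, was at 8.15 in the control, 8.10 with CFX and 7.82 with Mt-CFX, a log2 difference of −0.33 with Mt-CFX. These kinases act through phosphorylation, which the arrays do not measure.

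Of the 12 genes listed for eIF2, eIF2B and related initiation factors, 3 had a probe set with 1 symbol and 2 were above the floor. EIF2D, a factor for initiation and ribosome recycling, was at 7.64, 7.68 and 7.84 log2 on the control, CFX and Mt-CFX arrays, and its relative DENR at 8.02, 8.17 and 8.21. MCTS1, the partner of DENR, was below the floor. The eIF2 and eIF2B subunits themselves, the phosphatase genes around PPP1R15A (GADD34), and the 5 C/EBP genes listed as dimer partners were not analysed here. In the list of ATF4 turnover and cofactor genes, 7 of 8 were measured. Among these, 5 were higher with Mt-CFX, 1 was lower and 1 equal, and 0 differed 1.5-fold. Among all genes 23.9% were higher, 23.2% lower and 52.9% equal. The median was 0.12 log2 with CFX and 0.12 with Mt-CFX, so the list had about the same value on the arrays of both compounds. BTRC, the ubiquitin ligase adaptor that marks ATF4 for degradation, was at 7.32 log2 in the control and 7.45 with either compound.

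The bZIP family to which ATF4, CHOP and ATF3 belong held genes that were higher and genes that were lower. Of 50 other bZIP genes listed, 33 were above the floor. With Mt-CFX 11 were higher than in the control, 6 were lower and 16 equal, with a median of 0.00, beside 23.9% higher, 23.2% lower and 52.9% equal among all genes. With CFX 6 were higher, 9 lower and 18 equal, beside 25.8% higher, 15% lower and 59.2% equal among all genes. None was 2-fold higher or lower with either compound, and with Mt-CFX 3 were at least 1.5-fold higher, beside 1.45% of all genes, and 0 were lower by that much. XBP1, a transcription factor of the unfolded protein response, was at 7.16 log2 in the control, 7.23 with CFX and 7.99 with Mt-CFX. The AP-1 gene JUNB was at 5.77, 5.67 and 6.48, lowest with CFX. NFE2L2, which encodes the antioxidant regulator NRF2, was at 6.77, 7.02 and 7.39, with the CFX array between the others as for ATF4. Among the 15 measured genes of the ATF and CREB family proper, 9 had equal values with Mt-CFX and in the control, 3 were higher and 3 lower, and none differed 1.5-fold. ATF5, a close relative of ATF4, was at 5.31 log2 and JDP2, a close relative of ATF3, at 5.48 on all 3 arrays.

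TRIB3 and TRIB2 went opposite ways. TRIB2, a tribbles pseudokinase like TRIB3, was at 6.63 log2 in the control, 6.32 with CFX and 5.55 with Mt-CFX. It thus stood at 0.474 of the control level with Mt-CFX, with a log2 difference of −1.08 that was the 21st lowest of all genes, and at −0.31 with CFX. Its other probe set had equal values on the 3 arrays, so the probe sets of TRIB2 disagree. TRIB1 was at 5.17 log2 on all 3 arrays, the related pseudokinase gene STK40 at 7.23, 7.28 and 7.34, and STK11, which encodes the kinase LKB1, at 6.39 on all 3.

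Of the 11 genes listed for proteins that TRIB3 is known to bind or that act with it, 8 were measured. With Mt-CFX 2 were higher, 2 lower and 4 equal, with a median of 0.00, beside 23.9% higher, 23.2% lower and 52.9% equal among all genes. The autophagy receptor gene SQSTM1 was at 6.22 log2 in the control, 6.23 with CFX and 7.06 with Mt-CFX. ACACA, which encodes the acetyl-CoA carboxylase that TRIB3 can direct to degradation, was at 7.74, 7.69 and 7.08. Both had nearly the same value with CFX as in the control and differed more than 1.5-fold with Mt-CFX, in opposite directions. For AKT1 and AKT2 the control and Mt-CFX arrays were tied.

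**Figure D3:**
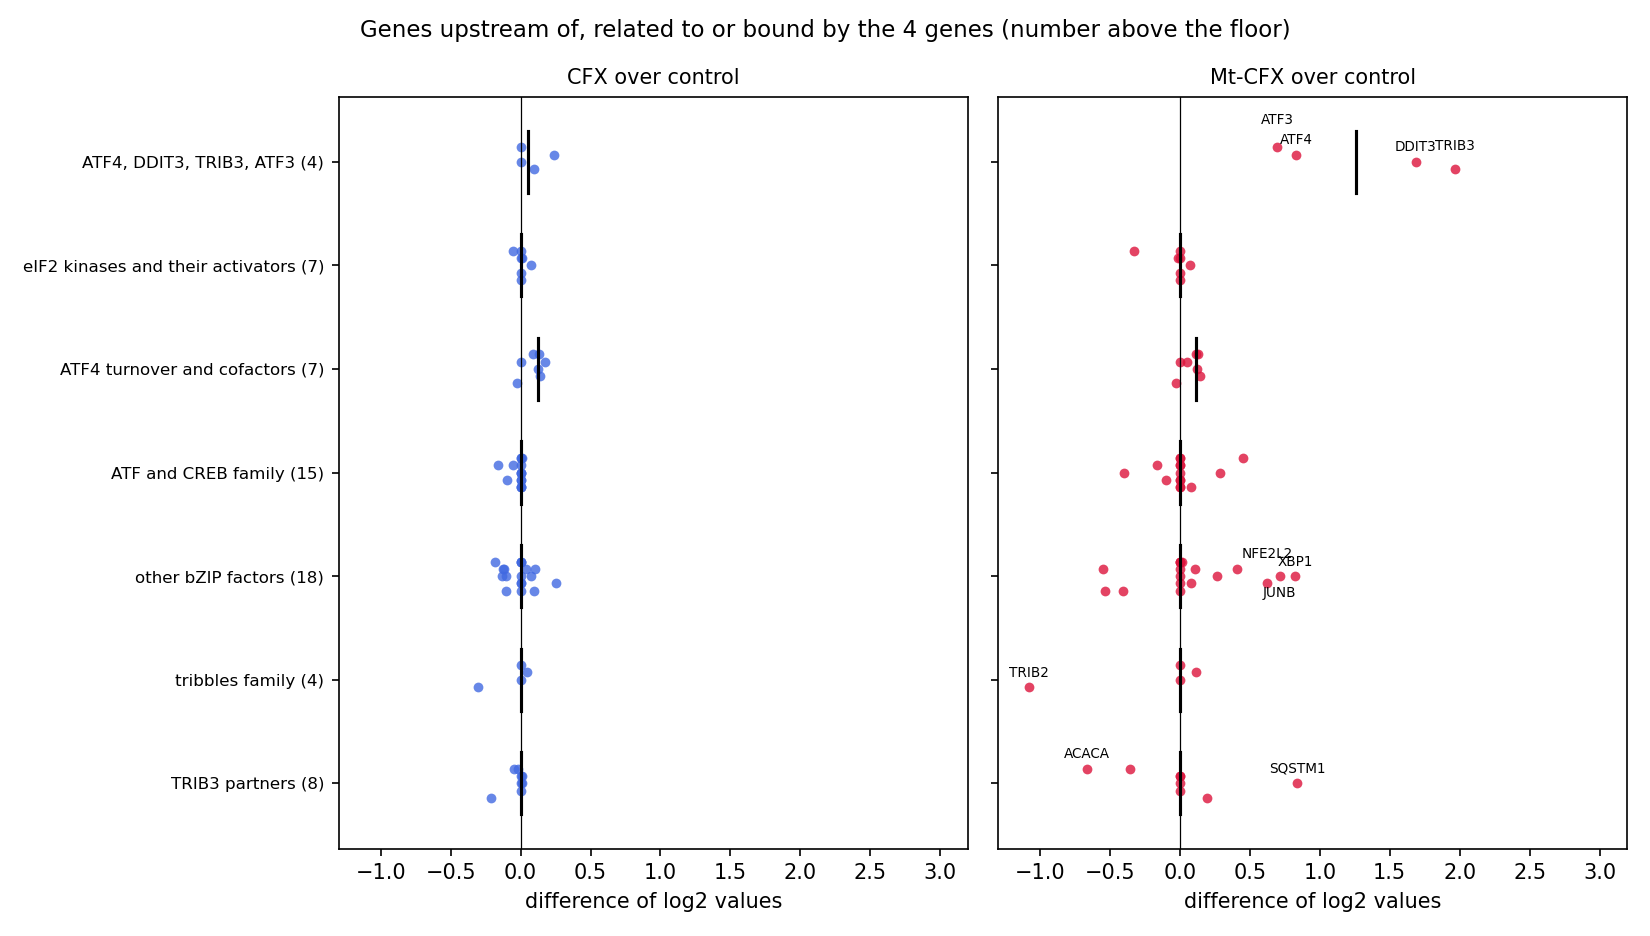
Differences of log2 values from the control for the 4 genes and for 6 lists around them, with CFX on the left and Mt-CFX on the right, 1 point per gene, the list's median as a black bar and the number of genes above the floor in brackets. With Mt-CFX the kinases and cofactors lie between −0.33 and 0.14, the other bZIP genes spread from −0.55 to 0.83 (XBP1), and TRIB2 at −1.08 and ACACA at −0.66 lie on the other side of 0 from TRIB3 at 1.97.

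Most measured genes that ATF4 is known to induce were higher with Mt-CFX. In the list for amino acid supply, 8 of 24 genes were measured, and 7 were higher, 0 lower and 1 equal, with a median of 0.55 log2. Over all genes 23.9% were higher and the median was 0.00. At least 2-fold higher were 3 of the 8, beside 0.304% of all genes. As this list and the other list of ATF4 targets were chosen with earlier results of these data known, the shares are background only. CTH, which makes cysteine, was at 6.01 log2 in the control, 6.68 with CFX and 7.89 with Mt-CFX. ASNS, the asparagine synthetase, was at 7.64, 7.81 and 8.82. PSAT1, an enzyme of serine synthesis, was at 9.95, 10.35 and 10.96, and PHGDH, which precedes it in the pathway, at 7.25, 7.28 and 7.87. The median of this list with CFX was 0.10 log2, with 6 higher, 1 lower and 1 equal. Among all genes 25.8% were higher with CFX, 15% lower and 59.2% equal. CTH, at 0.67 log2, was the list's only member at least 1.5-fold higher with CFX, beside 0.0451% of all genes.

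In the list of ATF4 targets in stress and signalling, 14 of 25 genes were above the floor, and 11 were higher, 1 lower and 2 equal with Mt-CFX, with a median of 0.33 log2, where 23.9% of all genes were higher and their median was 0.00. At least 2-fold higher were 3 of the 14, beside 0.304% of all genes. GDF15, a secreted stress cytokine, was at 5.51 log2 in the control, 5.83 with CFX and 8.33 with Mt-CFX. DDIT4, an inhibitor of mTOR signalling, was at 6.79, 7.10 and 9.37, and SESN2 at 6.32, 6.15 and 7.97. GDF15 and DDIT4 had wider Mt-CFX differences than any of the 4 core genes. SESN2 was lower with CFX than in the control, by a log2 difference of −0.17. PCK2, a mitochondrial enzyme that makes phosphoenolpyruvate, was at 6.10, 6.55 and 7.00, with a CFX difference of 0.45 that was wider than that of ATF4, and CLIC4 was at 9.23, 9.30 and 9.86.

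Genes linked to CHOP showed no common direction. Of 16 listed, 10 were above the floor. With Mt-CFX 3 were higher, 4 lower and 3 equal, with a median of 0.00, beside 23.9% higher, 23.2% lower and 52.9% equal among all genes. At least 1.5-fold higher were 2 of the 10, beside 1.45% of all genes, and 0 were lower by that much. At least 2-fold higher was 1, beside 0.304% of all genes. PMAIP1 was at 6.39 log2 in the control, 6.62 with CFX and 7.23 with Mt-CFX. WARS1, a tryptophanyl-tRNA synthetase, was at 6.05, 5.98 and 7.09 at the probe set used, and its other probe set was equal on the 3 arrays. BBC3 (PUMA) at 5.07, BCL2L11 (BIM) at 4.34 and BCL2 at 5.46 log2 each had a single value on the 3 arrays. ERO1A, an oxidase of the endoplasmic reticulum that CHOP can induce, was at 8.38, 8.42 and 8.27. PPP1R15A, TNFRSF10B and CHAC1 were not analysed here.

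The list for the ATF6 and XBP1 arms of the unfolded protein response, which run beside the PERK arm that leads to ATF4, also went both ways. Of 26 genes, 13 were measured, and with Mt-CFX 5 were higher, 6 lower and 2 equal, with a median of 0.00. Among all genes 23.9% were higher, 23.2% lower and 52.9% equal. At least 1.5-fold higher were 2 of the 13, XBP1 and ERN1, beside 1.45% of all genes, and 1, CALR, was lower by that much. The chaperone gene CALR was at 11.07 log2 in the control, 10.88 with CFX and 10.22 with Mt-CFX, the widest difference in the list. ERN1, which encodes the sensor IRE1 that splices XBP1 messenger RNA, was at 5.17, 5.05 and 5.77. HSPA5, the chaperone most often used as a marker of these arms, was not analysed here. In the list of mitochondrial stress genes 11 of 16 were above the floor. With Mt-CFX 3 were higher, 3 lower and 5 equal, beside 23.9%, 23.2% and 52.9% of all genes. GDF15 was the only one at least 1.5-fold higher, beside 1.45% of all genes, and 0 were lower by that much. Of the 14 reference genes 5 were measured, and their Mt-CFX differences ran from −0.20 to 0.11 log2, with 3 tied with the control. The 4 core genes, chosen with their values known, lay above this range, which is not an estimate of error.

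**Figure D4:**
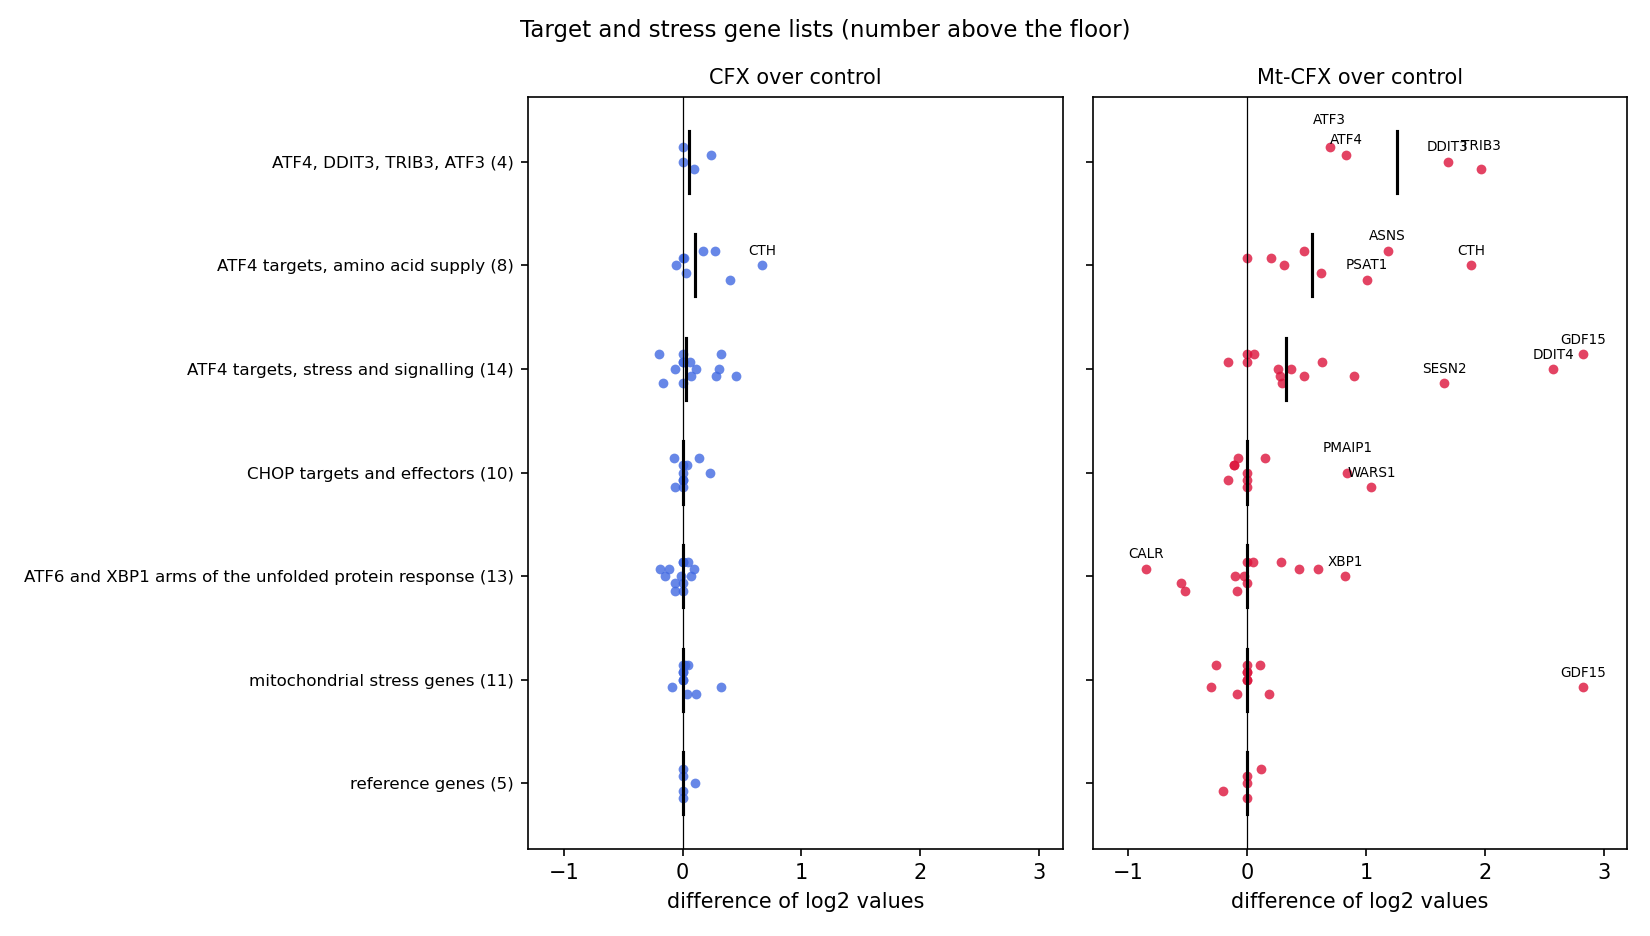
Differences of log2 values from the control for the 4 genes, for 5 target and stress lists and for reference genes, with CFX on the left and Mt-CFX on the right, 1 point per gene, the list's median as a black bar and the number of genes above the floor in brackets. With Mt-CFX the median bars of both ATF4 target lists lie to the right of 0, at 0.55 and 0.33 log2, and those of the CHOP, unfolded protein response, mitochondrial and reference lists lie at 0.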

How the data were processed

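RNA of 1 culture per group was measured on 1 array each. Per the submitters' processing notes, RMA in Affymetrix Expression Console gave the log2 values that the authors deposited; version, annotation release and genome build are not given in the sources used here. The table held 53617 probe sets, with values from 0.0868 to 13.1 log2.

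Gene names came from the platform annotation, which gave 1 symbol to 16098 of the probe sets, and all of these matched RefSeq by gene ID. The other 37519 had no symbol or more than 1 symbol and were not used. A listed gene not counted as measured may therefore still have a probe set on the arrays. Of a gene's probe sets the one with the highest mean was used. Of 11916 named protein-coding genes, 8868 reached the floor of 3.89 log2, the median of all values, on at least 1 array. Differences of log2 values were counted at 2-fold, with 1.5-fold as an alternative, and no test was made. Levels of different probe sets are not comparable, so only differences are ranked. The number of arrays limits precision.

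The 4 genes and the 17 other gene lists were chosen with earlier results of these data known. Genes named were the 4, list members past 1.5-fold, every measured gene of the kinase, initiation factor and tribbles lists, the nearest 3 genes to each of the 4 by Euclidean distance, and the neighbours in rank. Named outside this rule, after their values were seen, were reference points within lists (BTRC, ATF5, JDP2, AKT1, AKT2, ERO1A, BBC3, BCL2L11 and BCL2), the cell markers and EGR1. Protein sequences were not used here. Alternatives were other floors, averaging over probe sets, lowess re-centring with a span of 0.3 and genes of every type. Counting and motif search were tested on simulated data. Versions were Python 3.11.15, numpy 2.4.6, pandas 2.3.3, statsmodels 0.14.6 and matplotlib 3.10.9.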

Additional observations from a re-analysis of the deposited data

How the results depend on the processing

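The differences of the 4 genes moved by at most 0.00420 log2 under lowess re-centring and not at all when probe sets were averaged, as each has 1 probe set. With 52.9% to 59.2% of all genes tied in each comparison, re-centring could move values little, so it is a weak check. The count of the 4 genes past 2-fold, 2 over control and 2 over CFX with Mt-CFX, fell to 1 in both when the floor was set on the arrays' mean, which leaves out DDIT3, and to 1 in both with a floor at the 75th percentile, which leaves out DDIT3 and ATF3; at 1.5-fold it was 4 in both. Over all genes, the count higher at 1.5-fold was 129 for Mt-CFX over control, 100 for Mt-CFX over CFX and 4 for CFX over control, against 27, 23 and 2 at 2-fold. For CFX over control it was 0 with the floor on the arrays' mean, 0 with a floor at the 75th percentile and 6 with genes of every type. Of 210 list medians under alternatives, 202 moved by at most 0.1 log2, 8 moved further and 0 reversed. Most of the medians were 0.00, as many genes were tied, and only a median beyond 0.1 log2 could be counted as reversed. These counts therefore say little about the lists. No paired analysis was possible because each group is 1 array. Signal near the floor limits what can be said of DDIT3 and ATF3.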
